A study of Mus musculus with 28 samples.

Results

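Germ cells of the mouse testis carry their own forms of several enzymes of fuel metabolism, and 9 of their genes are described here: Hk1, Aldoart1, Aldoart2, Gapdhs and Pgk2 of glycolysis, Ldhc and Pdha2 of lactate and pyruvate use, Gk2 of glycerol use and Acsbg2 of fatty acid activation. They were chosen by symbol, through the array's annotation, from 18193 genes measured. Of the 12 probe sets annotated to them, 11 named 1 gene alone, and 1 that was shared between Hk1 and ribosomal protein genes was not used. Ldhc and Hk1 had 2 probe sets each, of which the one with the higher mean carried the tests.

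The RNA came from testes of adult male C57BL/6 mice, and the knockout (KO) mice lacked Ddx25, which encodes GRTH, a testicular helicase under gonadotropin control that binds RNA. The 28 arrays fell into 10 groups: total testicular polysome RNA of KO and wild-type (WT) mice (3 arrays each), WT polysome RNA immunoprecipitated (IP) with GRTH antibody or control IgG (2 each), spermatocytes of KO and WT mice (4 each), round spermatids of KO and WT mice (3 each) and Leydig cells of KO and WT mice (2 each). Cells were enriched by centrifugal elutriation and polysomes by sucrose gradients. Nothing in the labels says that replicates were separate animals, and p-values then cover only array-to-array spread, part of which may be technical.

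Glycolysis splits glucose into pyruvate, which lactate dehydrogenase interconverts with lactate and which pyruvate dehydrogenase converts to acetyl-CoA inside the mitochondrion. Meiotic germ cells live mainly on lactate and pyruvate supplied by Sertoli cells, whereas sperm carry glycolytic enzymes along the tail, where they fuel motility. Several of the germ cell enzymes are encoded by retrogenes, intronless copies that stand in for somatic genes, among them X-linked ones that are silenced in meiosis.

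Promoters are shown for 4 of these genes because the genes behaved differently across the 10 groups: Gapdhs and Pgk2, whose signal was lower in KO germ cells, and Ldhc and Pdha2, whose signal was not called different there. Each sequence is RefSeq's for build GRCm38.p6 and covers 300 bases around an annotated start, most of them before it. Capitals mark 4 motifs that were searched on both strands. The half-site of the cAMP response element was spelled TGACG. The GC box, a site of general promoter factors, was spelled GGGCGG. The remaining motifs were the CCAAT box, spelled as in its name, and the TATA box, which was spelled TATAAA. The sequences lie at chr7:30743632-30743931 on the minus strand (Gapdhs), chr17:40208560-40208859 on the minus strand (Pgk2), chr7:46861013-46861312 on the plus strand (Ldhc) and chr3:141212306-141212605 on the minus strand (Pdha2).
Gapdhs: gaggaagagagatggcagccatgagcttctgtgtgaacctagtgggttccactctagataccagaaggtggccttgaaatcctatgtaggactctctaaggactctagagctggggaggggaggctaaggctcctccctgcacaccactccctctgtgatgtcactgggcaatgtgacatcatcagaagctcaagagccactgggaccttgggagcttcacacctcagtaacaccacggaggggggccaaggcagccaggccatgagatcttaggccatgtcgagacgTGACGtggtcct
Pgk2: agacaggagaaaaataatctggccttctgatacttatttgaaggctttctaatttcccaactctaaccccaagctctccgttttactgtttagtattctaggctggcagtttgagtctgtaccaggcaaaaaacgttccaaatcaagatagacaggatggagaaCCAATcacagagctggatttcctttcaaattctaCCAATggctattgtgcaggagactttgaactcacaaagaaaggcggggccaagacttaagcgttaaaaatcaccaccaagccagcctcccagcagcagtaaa
Ldhc: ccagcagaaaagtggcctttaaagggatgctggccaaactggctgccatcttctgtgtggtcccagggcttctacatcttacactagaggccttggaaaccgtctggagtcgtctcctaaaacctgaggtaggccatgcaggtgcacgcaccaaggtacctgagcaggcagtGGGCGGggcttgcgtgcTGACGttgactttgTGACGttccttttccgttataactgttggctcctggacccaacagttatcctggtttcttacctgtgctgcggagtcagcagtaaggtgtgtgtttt
Pdha2: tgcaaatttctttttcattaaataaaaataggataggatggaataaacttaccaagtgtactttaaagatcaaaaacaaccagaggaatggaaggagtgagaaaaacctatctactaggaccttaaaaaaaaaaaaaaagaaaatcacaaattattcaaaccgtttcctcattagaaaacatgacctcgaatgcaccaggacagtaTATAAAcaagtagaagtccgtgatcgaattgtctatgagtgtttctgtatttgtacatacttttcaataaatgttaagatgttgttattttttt

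RefSeq promoters were found for 7 of the 9 genes, 10 promoters in all, and none were listed for Aldoart1 and Acsbg2. Gapdhs and Ldhc each had another promoter, not shown, in which no searched motif was found. The half-site was present in 2 of the 10 promoters, 1 of Ldhc and 1 of Gapdhs, against 20.8% of all 32851 promoters. In Ldhc it occurred at 61 and at 47 bases before the start, and a GC box lay at 78 bases before it, a motif held by 35.7% of all promoters. The Pgk2 promoter held the CCAAT box at 86 and at 52 bases before the start, and 37.4% of all promoters hold that motif. A TATA box lay at 44 bases before the start of Pdha2, a motif of 13.6% of all promoters. The palindromic full response element, which contains the half-site, was in 0 of the 10 promoters and in 1.79% of all. Letter matches describe these windows and say nothing of binding.

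Levels are given as array signal, rescaled so that each array has a trimmed mean of 500, and differences as log2 differences ± SE. A gene is called when limma's p-value, adjusted over the 9097 genes tested in a comparison, is below 0.05, and every adjusted p for a gene is limma's. All 9 genes passed the filter on low signal in all 8 comparisons, and their probe sets lay at or above percentile 91.3 of mean signal over all probe sets. The targeted gene was checked first: Ddx25 read 1063, 598 and 805 in KO polysome RNA against 14834, 21149 and 14624 in WT polysome RNA, and it was called lower in KO samples of all 4 sources. Its KO mean was 4.87% of the WT mean in polysome RNA. More signal was left in the cell fractions, at 20.7% in spermatocytes, 25.4% in round spermatids and 25.1% in Leydig cells. The columns of 4 polysome arrays (KO 1 and 2, WT 1 and 2) had been deposited unscaled, with trimmed means of 29.8 to 168 before rescaling. The free-text descriptions of 4 arrays (KO polysome 1, WT polysome 1 and 2, IgG IP 1) go against their titles, which were followed. The ratio of 3' to 5' actin signal was 3.81 to 12.8 on the 4 IP arrays, labelled in 2 steps, against 1.41 to 2.09 on the other 24. Within each genotype spermatocyte arrays 1 and 2, and likewise 3 and 4, resembled each other more (SD of log2 differences 0.12 to 0.14) than the other pairs did (0.19 to 0.22). Round spermatid arrays 1 and 2 were likewise closer (0.16 in KO and 0.17 in WT) than the other round spermatid pairs (0.21 to 0.23 in KO and 0.26 to 0.28 in WT). The labels do not say whether the arrays of a close pair came from separate animals.

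The KO effect fell on part of the enzymes. In polysome RNA 4 of the 9 genes were called lower in KO and 0 higher (Gapdhs, Acsbg2, Pgk2 and Aldoart1), where 5.77% of all genes tested were called lower, 0.572% higher and 6.34% in either direction. In spermatocytes 6 of 9 were called lower and 0 higher (background 17.8% lower, 19.6% higher, 37.4% in either direction), and in round spermatids 6 of 9 were lower and 0 higher (background 22.4% lower, 41% higher, 63.4% in either direction). The 6 were Gapdhs, Pgk2, Aldoart1, Aldoart2, Hk1 and Acsbg2 at both stages. With the closest arrays averaged the 6 were still called in round spermatids (background 17% lower and 31% higher). In spermatocytes averaging left 4, without Pgk2 and Aldoart1 (background 8.49% lower and 5.035% higher). A fit over 24 arrays left the same 4 in spermatocytes (background 8.57% lower and 5.46% higher). In the Leydig cell fraction 9 of 9 were called lower (background 39.3% lower, 38.6% higher, 77.9% in either direction). That count was 4 in a fit over 24 arrays (background 8.85% lower and 11.3% higher), where Gapdhs, Aldoart2, Hk1 and Acsbg2 were called. It was 6 after quantile normalization (background 43.3% lower and 32.5% higher). Fits without 1 Leydig array left 1 array in a group and are not counted here. Median log2 differences of the 9 genes were -1.15 in polysome RNA, -0.32 in spermatocytes, -0.68 in round spermatids and -0.44 in Leydig cells, beside 0.13, 0.03, 0.15 and -0.01 over all genes tested. With the replicate number as a block the polysome count was 6, with Aldoart2 and Hk1 added, at a background of 11.8% lower and 12.9% higher, so that the calls over all genes, mostly lower without the block, were about evenly split with it. The same 6 were called after median centring (background 7.5% lower and 0.198% higher). They were also called in a fit over 24 arrays (17% lower and 18.2% higher) and with array weights (9.4% lower and 8.3% higher). The fit without the 3 polysome arrays of conflicting description left 1 WT array and is not counted here. In these bulk samples, fewer cells of a type and less RNA per cell cannot be told apart.

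**Figure D1:**
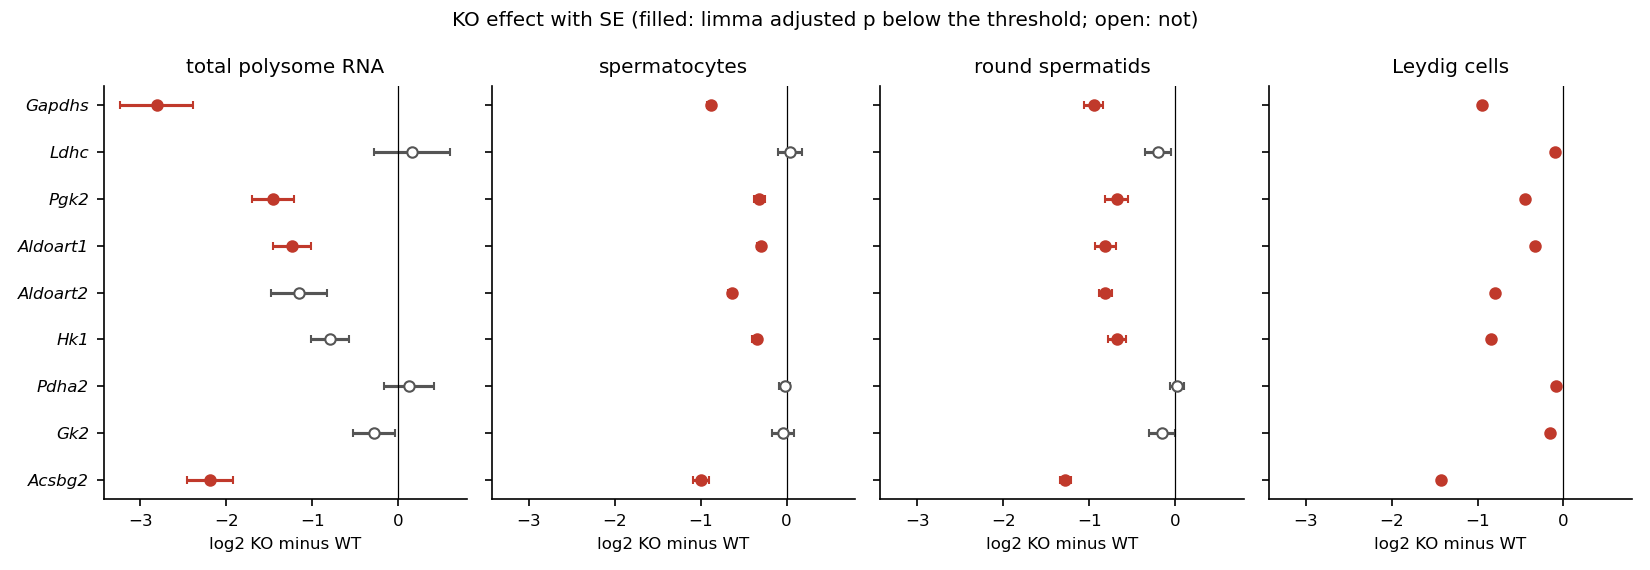
Log2 difference of KO minus WT (x axis) for each of the 9 enzymes (y axis) in the 4 RNA sources, with SE bars, filled where called and open where not. Gapdhs (-2.81) and Acsbg2 (-2.19) lie farthest below 0 in polysome RNA, while Ldhc, Pdha2 and Gk2 lie near 0 in the germ cell fractions.

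Elongating spermatid markers, the latest germ cells on the lists, moved in the same direction as the enzymes that were called lower. All 16 of them were called lower in KO in each of the 4 sources, with median log2 differences of -3.05 in polysome RNA, -0.98 in spermatocytes, -0.95 in round spermatids and -0.77 in Leydig cells. Over all genes tested 5.77% were called lower in polysome RNA, 17.8% in spermatocytes, 22.4% in round spermatids and 39.3% in Leydig cells. Their summed signal was 30964 to 58603 in KO polysome RNA against 245625 to 467587 in WT polysome RNA. In spermatocytes it was 75780.5 to 83322 in KO against 135573 to 164561 in WT, and in round spermatids 223827 to 278640 in KO against 387592 to 526972 in WT. The groups did not overlap in any of these 3 sources. Of 9 measured round spermatid markers, 2 were called lower in KO polysome RNA, 8 in KO spermatocytes and 6 in KO round spermatids, where 1 was higher. Of 10 spermatocyte markers, 0 were called in polysome RNA, and the list's summed signal was 49285 to 54589 in KO against 40475 to 50223 in WT. In round spermatids 4 of these 10 were called higher in KO and 0 lower, with a summed signal of 35644 to 36658 in KO against 29076 to 30880.4 in WT and no overlap. Since 41% of all genes tested were called higher there, 4 of 10 is no more than the all-gene share. Of 6 tested spermatogonium markers, 5 were higher in KO round spermatids and 0 lower, and the 8 measured summed to 3928 to 4373 in KO against 2677 to 3035 in WT. The part of these marker differences in those of the enzymes was not tested.

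**Figure D2:**
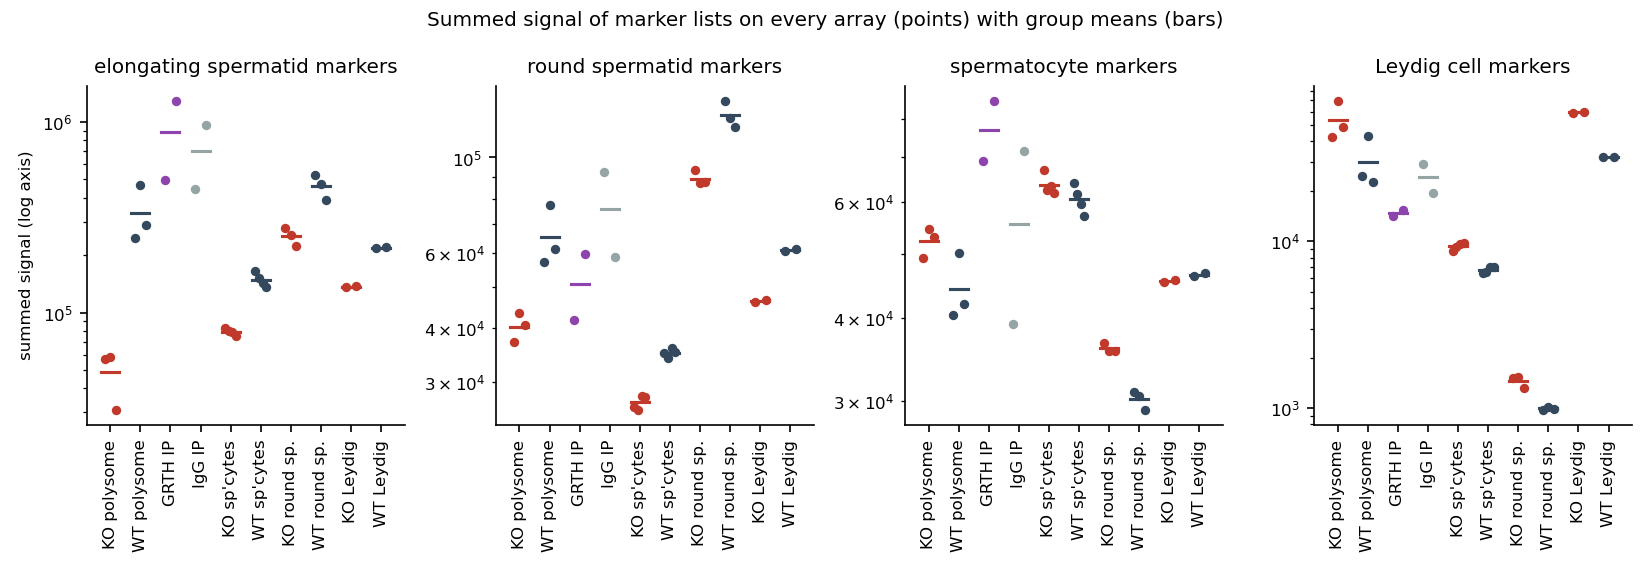
Summed signal (y axis, log scale) of 4 marker lists on each array (points) with group means (bars), by group (x axis). Elongating spermatid markers sum to 30964 to 58603 in KO polysome RNA against 245625 to 467587 in WT polysome RNA, and they are also abundant in both Leydig cell groups.

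Hk1 encodes hexokinase 1, which phosphorylates glucose at the entry to glycolysis, and germ cells also use alternative transcripts of it, which were not told apart here. Its tested probe set read 5734, 6429 and 6177 in KO polysome RNA against 9130.2, 13755 and 9498 in WT polysome RNA. Every KO array lay below every WT array, but the difference (-0.79 ± 0.22, adjusted p = 0.0769) was not called. It was called with the replicate block (adjusted p = 0.00456) and in 4 other fits, after median centring, with the filter at percentile 75 of signal, over 24 arrays and with array weights (adjusted p = 3.2e-05 to 0.0462). In spermatocytes the signal was 7175, 6765, 7239 and 6612 in KO against 9321, 8638, 9027 and 8365 in WT. In round spermatids it was 18236, 16896 and 16180.5 in KO against 30731, 27616 and 23785 in WT. The genotypes did not overlap at either stage, and both differences were called (-0.35 ± 0.05, adjusted p = 0.000734, in spermatocytes and -0.67 ± 0.10, adjusted p = 0.00103, in round spermatids). The Leydig fraction gave 6752 and 6778 in KO against 12099.5 and 12302 in WT (-0.85 ± 0.02, adjusted p = 3.43e-05). The second Hk1 probe set also read lower in KO spermatocytes (-0.64 ± 0.09, adjusted p = 0.0013) and KO round spermatids (-0.52 ± 0.10, adjusted p = 0.00457), and in polysome RNA it was not called (-0.44 ± 0.25, adjusted p = 0.43). From highest to lowest group mean, the tested probe set ran WT round spermatids, then KO round spermatids, then an overlapping run of WT Leydig cells, WT polysome RNA and WT spermatocytes, then an overlapping run of KO spermatocytes and KO Leydig cells, then an overlapping run of KO polysome RNA, IgG IP and GRTH IP.

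Aldoart1 and Aldoart2 are germ cell retrogenes of aldolase A, which splits fructose bisphosphate, and how far probe sets for these copies cross-hybridise was not tested. Aldoart1 read 513, 588 and 497 in KO polysome RNA against 1508, 1029 and 1335 in WT polysome RNA. It fell 2.36-fold with no overlap between the genotypes (-1.24 ± 0.22, adjusted p = 0.00853), a call that ended without WT polysome 1 (adjusted p = 0.0519). The call also ended without the 3 polysome arrays of conflicting description, a fit that left 1 WT array. In spermatocytes Aldoart1 gave 1441, 1519.5, 1474 and 1501 in KO against 1795, 1942, 1847 and 1724 in WT. In round spermatids it gave 5768, 5367 and 5336 in KO against 10833, 10506 and 7886 in WT. It was called lower at both stages, by a log2 difference of -0.30 ± 0.05, adjusted p = 0.00111, in spermatocytes and -0.81 ± 0.12, adjusted p = 0.000958, in round spermatids. The spermatocyte call ended when near-identical arrays were averaged (adjusted p = 0.0611). Leydig fraction values were 3191 and 3193 in KO against 4037 and 4002 in WT (-0.33 ± 0.02, adjusted p = 0.000281). The order of its group means was WT round spermatids, then KO round spermatids, then WT Leydig cells, then KO Leydig cells, then an overlapping run of IgG IP and WT spermatocytes, then an overlapping run of KO spermatocytes, WT polysome RNA and GRTH IP, then KO polysome RNA.

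Aldoart2 read 1292, 1766 and 979.7 in KO polysome RNA against 2985, 4298 and 1949 in WT polysome RNA. Each KO array lay below each WT array, and the log2 difference was -1.15 ± 0.33, adjusted p = 0.0791, which did not pass. The replicate block called it (adjusted p = 0.000212), as did median centring, the fit over 24 arrays, array weights and leaving out WT polysome 3 (adjusted p = 9.66e-05 to 0.0355). KO spermatocytes had 1555, 1622, 1660.5 and 1736, against 2519, 2532, 2572 and 2593 in WT spermatocytes. KO round spermatids had 8164, 7728 and 8058, against 15127, 13941 and 13069 in WT round spermatids. The enzyme fell 1.55-fold in spermatocytes (-0.63 ± 0.04, adjusted p = 7.83e-06) and 1.76-fold in round spermatids (-0.81 ± 0.08, adjusted p = 9.41e-05), and the genotypes were apart at both stages. In the Leydig fraction 3357 and 3312 in KO stood against 5847 and 5805 in WT (-0.80 ± 0.02, adjusted p = 3.68e-05). Its group means ranked WT round spermatids, then KO round spermatids, then WT Leydig cells, then an overlapping run of KO Leydig cells, IgG IP, WT polysome RNA, WT spermatocytes, GRTH IP, KO spermatocytes and KO polysome RNA.

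Gapdhs encodes the glyceraldehyde phosphate dehydrogenase of spermatids and sperm, which is bound to the fibrous sheath of the tail, and it showed the deepest polysome difference of the 9. Its signal was 3293, 3283 and 1702 in KO polysome RNA against 16172, 35257 and 11358 in WT polysome RNA. The KO mean was 13.2% of the WT mean, and within the numbered pairs the log2 difference was -2.29, -3.42 and -2.73. The gene was called lower (-2.81 ± 0.42, adjusted p = 0.00375) and stood at rank 40 from the lowest of 9097 log2 differences. In spermatocytes it read 4053, 3993, 4269.6 and 4142 in KO against 7903, 7336, 7802 and 7345 in WT. Round spermatids gave 17621, 16579 and 15019 in KO against 35863, 31803 and 27644 in WT. The KO mean was 54.2% of the WT mean in spermatocytes (-0.88 ± 0.05, adjusted p = 1.09e-06) and 51.6% in round spermatids (-0.95 ± 0.11, adjusted p = 0.00026). Leydig fraction arrays had 6828 and 6984 in KO against 13178 and 13400.1 in WT (-0.94 ± 0.02, adjusted p = 3.58e-05). Mean signal ran from 31770.1 ± 4109.6 (SD, n = 3) in WT round spermatids, the highest group, down to 2759 ± 916 (SD, n = 3) in KO polysome RNA, the lowest. The full order was WT round spermatids, then an overlapping run of IgG IP, WT polysome RNA, KO round spermatids and GRTH IP, then WT Leydig cells, then WT spermatocytes, then KO Leydig cells, then KO spermatocytes, then KO polysome RNA.

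Pgk2, the phosphoglycerate kinase retrogene that takes over from X-linked Pgk1 in meiosis, was lower in KO from all 4 sources. Polysome arrays read 2518, 2740.2 and 1669.7 in KO against 6775, 6481 and 5507 in WT. That was a 2.75-fold lower signal (-1.46 ± 0.24, adjusted p = 0.00625). The call ended without the 3 polysome arrays of conflicting description, a fit that left 1 WT array. Spermatocyte arrays read 7297, 7036, 6976 and 6833 in KO against 9692, 9190.2, 8246 and 8062 in WT. Round spermatid arrays read 17375, 15987 and 14773 in KO against 29698, 27017 and 20941 in WT. The difference was small in spermatocytes (-0.32 ± 0.06, adjusted p = 0.00396), where averaging near-identical arrays ended the call (adjusted p = 0.0902). It was -0.68 ± 0.13, adjusted p = 0.00329, in round spermatids, and in the Leydig fraction 9237 and 9238 in KO stood against 12590.1 and 12532 in WT (-0.44 ± 0.02, adjusted p = 0.000123). Both polysome groups ranked lowest, in an order that ran WT round spermatids, then KO round spermatids, then WT Leydig cells, then IgG IP, then an overlapping run of KO Leydig cells, GRTH IP and WT spermatocytes, then KO spermatocytes, then WT polysome RNA, then KO polysome RNA.

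Ldhc encodes the lactate dehydrogenase of germ cells, which lets them use lactate, and it was called in neither polysome RNA nor a germ cell fraction as tested here. In polysome RNA it read 35330.3, 94680.4 and 38354 in KO against 32149, 79154 and 36182 in WT. Array 2 was the highest of its group in both genotypes, the ranges overlapped, and no difference was called (0.16 ± 0.45, adjusted p = 0.881). Spermatocytes had 31079, 28069, 23271 and 21403 in KO against 29958, 26379, 23387 and 21024 in WT. Round spermatids had 39626, 35911 and 29357 in KO against 46094, 41696 and 32930 in WT. Both ranges overlapped, with 0.04 ± 0.14, adjusted p = 0.842, in spermatocytes and -0.20 ± 0.15, adjusted p = 0.282, in round spermatids, where the replicate block (-0.20, adjusted p = 0.0213) and array weights (-0.22, adjusted p = 0.0369) each brought it past the threshold. The second Ldhc probe set was called in neither germ cell fraction (-0.01 ± 0.16, adjusted p = 0.959, in spermatocytes and -0.38 ± 0.18, adjusted p = 0.122, in round spermatids). The Leydig fraction held 19460 and 20113 in KO against 21286 and 21254 in WT. This small difference was called (-0.10 ± 0.03, adjusted p = 0.0201), but not after quantile normalization (adjusted p = 0.686), without the signal filter (adjusted p = 0.0889) or over 24 arrays (adjusted p = 0.894). Nor was it called without WT 1, WT 2 or KO 1, fits that left 1 array in a group. Ranked by mean, the groups were an overlapping run of GRTH IP, IgG IP, KO polysome RNA, WT polysome RNA, WT round spermatids, KO round spermatids, KO spermatocytes, WT spermatocytes and WT Leydig cells, then KO Leydig cells.

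Pdha2, the testis retrogene for the E1 alpha subunit of pyruvate dehydrogenase, which stands in for X-linked Pdha1, held the flattest profile of the 9 across the cell fractions. KO polysome RNA had 10902, 9232 and 6298, against 8366, 10252 and 5697 in WT polysome RNA. KO spermatocytes had 11636, 10745, 10742 and 10247, against 12021, 11033, 10914 and 10143 in WT spermatocytes. KO round spermatids had 10822, 10246 and 9515, against 10594, 9861 and 9629.6 in WT round spermatids. The genotypes overlapped in all 3, and none was called (0.12 ± 0.29, adjusted p = 0.851, in polysome RNA, -0.02 ± 0.06, adjusted p = 0.796, in spermatocytes and 0.02 ± 0.08, adjusted p = 0.809, in round spermatids). Quantile normalization called it higher in KO round spermatids (0.28, adjusted p = 0.00288). Leydig fraction arrays had 8859.5 and 8869.5 in KO against 9329 and 9464 in WT. That called difference (-0.08 ± 0.02, adjusted p = 0.02) changed sign and was not called after quantile normalization (0.04, adjusted p = 0.113). It was also lost without the signal filter (adjusted p = 0.101) and over 24 arrays (adjusted p = 0.845). The same held without WT 2, KO 1 or KO 2, fits that left 1 array in a group. Its group means ran an overlapping run of WT spermatocytes, KO spermatocytes, KO round spermatids and WT round spermatids, then WT Leydig cells, then an overlapping run of KO Leydig cells, KO polysome RNA, WT polysome RNA and IgG IP, then GRTH IP.

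Gk2 encodes a germ cell glycerol kinase, which makes glycerol phosphate. Its polysome signal was 12947, 15360.2 and 14808 in KO against 13619, 23471 and 16667 in WT. Its spermatocyte signal was 21399.6, 19716, 17236 and 16108 in KO against 22722, 20831, 17096 and 16209 in WT. Its round spermatid signal was 25477, 23525 and 20146 in KO against 29512, 27248 and 20596 in WT. The genotypes overlapped in each, and none of the 3 differences was called (-0.28 ± 0.24, adjusted p = 0.552, in polysome RNA, -0.04 ± 0.12, adjusted p = 0.823, in spermatocytes and -0.15 ± 0.15, adjusted p = 0.396, in round spermatids). Quantile normalization gave round spermatids the opposite sign and a call (0.20, adjusted p = 0.0294). Array weights (-0.21, adjusted p = 0.0349) and leaving out WT round spermatids 3 (-0.31, adjusted p = 0.0457) called it lower. The Leydig fraction read 14743 and 14753 in KO against 16459 and 16497 in WT (-0.16 ± 0.02, adjusted p = 0.0022), a call that ended after quantile normalization (adjusted p = 0.144) and over 24 arrays (adjusted p = 0.693). By group mean the order was an overlapping run of IgG IP, GRTH IP, WT round spermatids, KO round spermatids, WT spermatocytes, KO spermatocytes, WT polysome RNA and WT Leydig cells, then an overlapping run of KO Leydig cells and KO polysome RNA.

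Acsbg2, an acyl-CoA synthetase of the bubblegum family that activates fatty acids in the testis, was lower in KO by the largest factor of the 9 in both germ cell fractions and in the Leydig fraction. Its polysome arrays gave 1090.5, 574 and 608 in KO against 3413, 3499 and 3211 in WT. The highest KO array was below the lowest WT array, and the gene fell 4.57-fold (-2.19 ± 0.27, adjusted p = 0.00126). Its spermatocyte arrays gave 558, 558, 660.3 and 694 in KO against 1115, 1174, 1327 and 1361 in WT. Its round spermatid arrays gave 3275, 3317 and 3339 in KO against 8063, 7739.8 and 8340.5 in WT. The KO mean was 49.6% of the WT mean in spermatocytes (-0.99 ± 0.09, adjusted p = 4.27e-05) and 41.1% in round spermatids (-1.28 ± 0.06, adjusted p = 7.55e-06). In the Leydig fraction 1392 and 1385 in KO stood against 3773 and 3737 in WT (-1.43 ± 0.02, adjusted p = 2.38e-05). The ranking of its group means was WT round spermatids, then WT Leydig cells, then an overlapping run of WT polysome RNA and KO round spermatids, then IgG IP, then GRTH IP, then KO Leydig cells, then WT spermatocytes, then an overlapping run of KO polysome RNA and KO spermatocytes.

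**Figure D3:**
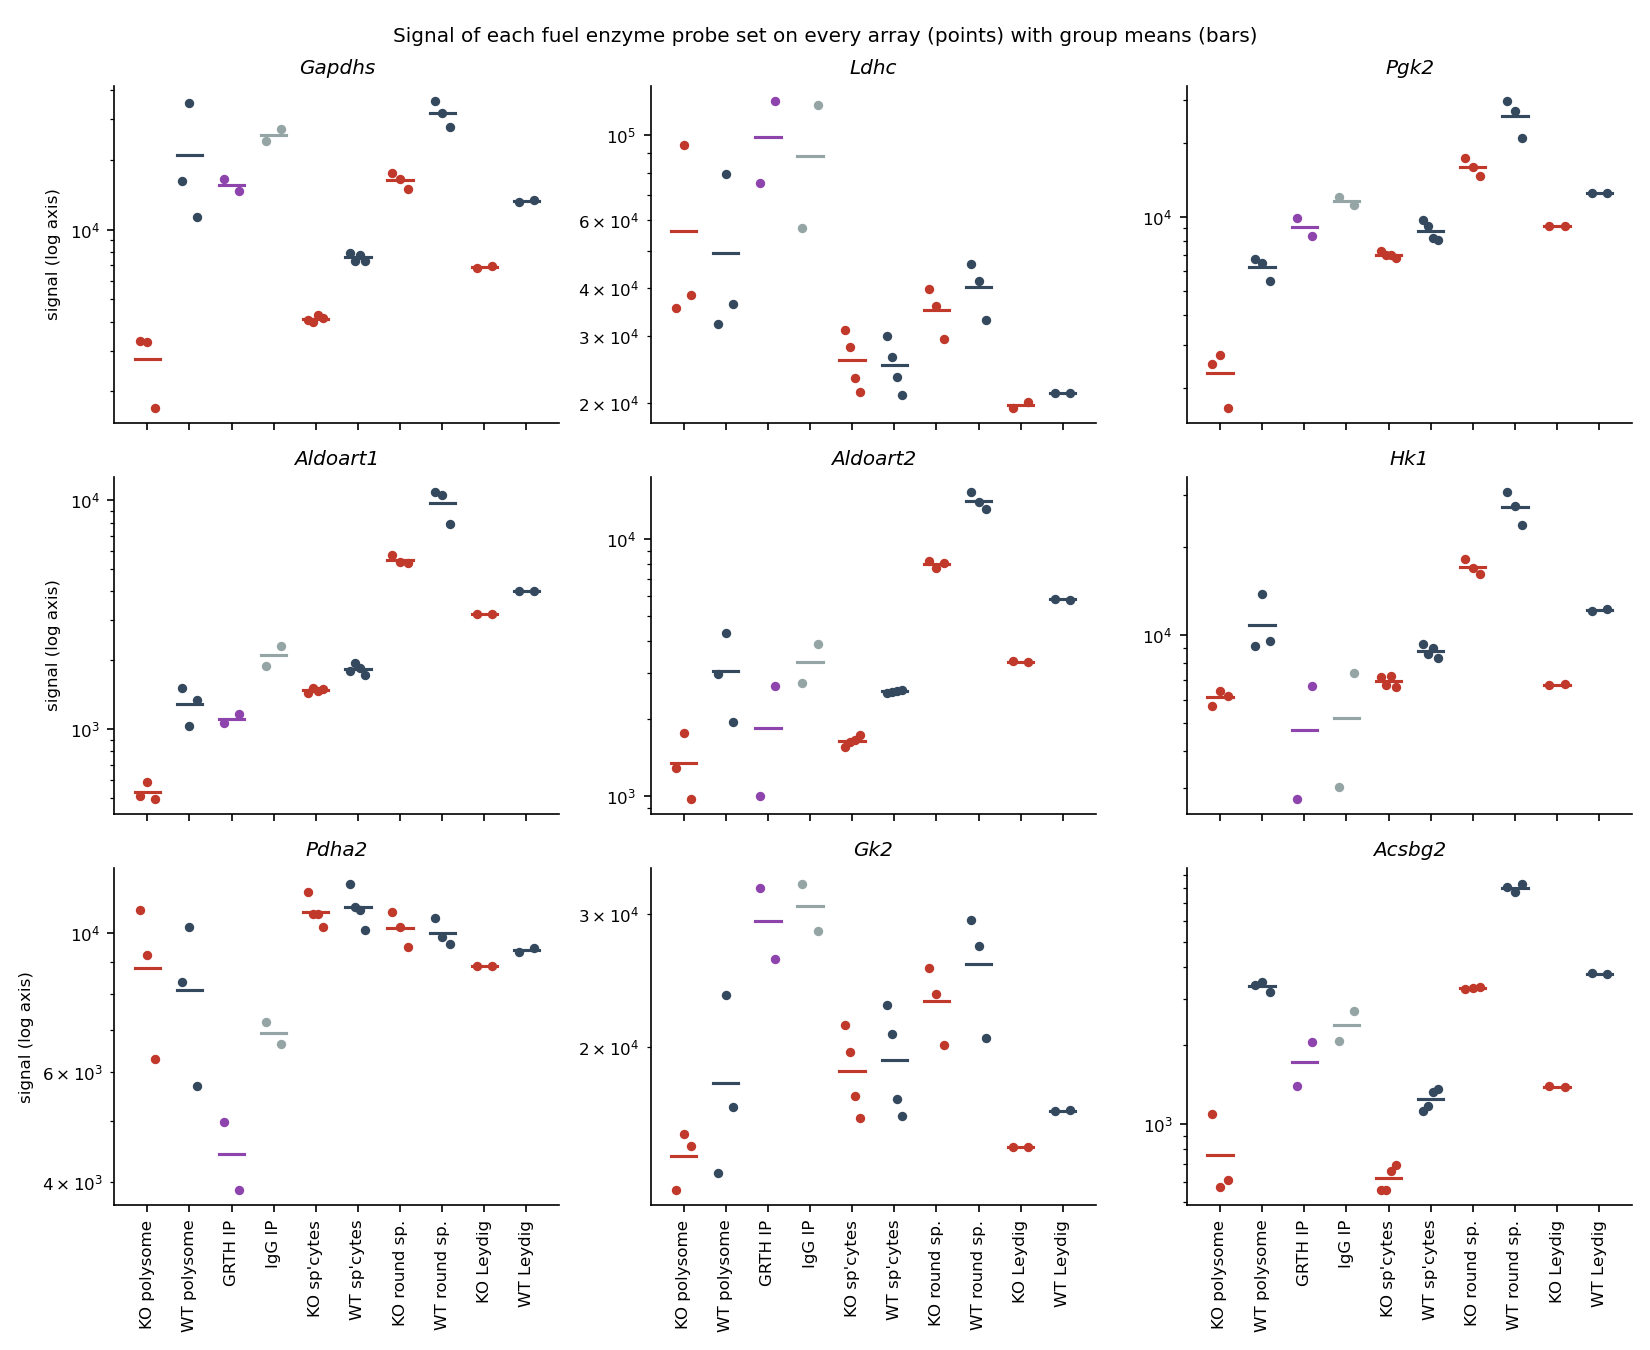
Signal (y axis, log scale) of the tested probe set of each enzyme on all 28 arrays (points) with group means (bars), by group (x axis). KO arrays lie below WT arrays for Gapdhs, Acsbg2, Pgk2, Aldoart1, Aldoart2 and Hk1 in all 4 RNA sources, whereas Ldhc, Pdha2 and Gk2 overlap between genotypes in polysome RNA and both germ cell fractions.

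The next comparison asked how the enzymes' transcripts change between meiosis and the haploid stage without the knockout. WT round spermatids had a higher signal than WT spermatocytes for 8 of the 9 genes, and 0 were called lower, against a background of 36.2% higher and 51% lower (87.2% called in either direction). Acsbg2 (6.42-fold, 2.68 ± 0.08, adjusted p = 6.5e-09), Aldoart2 (5.46-fold, 2.45 ± 0.06, adjusted p = 3.55e-09), Aldoart1 (5.25-fold, 2.39 ± 0.11, adjusted p = 6.34e-08) and Gapdhs (4.15-fold, 2.05 ± 0.09, adjusted p = 4.23e-08) rose the most. Hk1 (1.62 ± 0.09, adjusted p = 2.07e-07) and Pgk2 (1.54 ± 0.12, adjusted p = 2.45e-06) rose less. Ldhc (0.67 ± 0.15, adjusted p = 0.00196) and Gk2 (0.42 ± 0.15, adjusted p = 0.0291) rose by small amounts that depended on the processing, and the stages overlapped for Gk2. Quantile normalization ended the Ldhc call (0.01, adjusted p = 0.757) and turned that of Gk2 (-0.24, adjusted p = 0.00539). Median centring, no signal filter and averaging near-identical arrays also ended the Gk2 call (adjusted p = 0.0688 to 0.155), as did leaving out WT spermatocytes 3 or 4 or WT round spermatids 1 or 2 (adjusted p = 0.0695 to 0.112). Pdha2 was not called (-0.14 ± 0.07, adjusted p = 0.105), although the replicate block (adjusted p = 0.0217), median centring (adjusted p = 0.00284) and quantile normalization (adjusted p = 2.12e-06) called it lower. The median of the 9 genes was 1.62, beside -0.24 over all genes tested.

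The 6 enzymes with the strongest stage rise were those with the lower signal in KO germ cells. Set against polysome RNA, which shares no arrays with the WT stage comparison, the 6 genes with a stage change of at least 1.5 on the log2 scale had polysome KO differences from -2.81 to -0.79, and 4 of the 6 were called lower. Ldhc, Gk2 and Pdha2, with stage changes from -0.14 to 0.67, had polysome KO differences from -0.28 to 0.16, and 0 of 3 were called. Pgk2 lay just inside the limit of 1.5 (1.54) and Ldhc was the nearest outside it (0.67), and the limit was chosen with these values known. This split is shared by the other genes: of 1019 genes at or past the limit, 431 (42.3%) were called lower in KO polysome RNA, with a median difference of -0.83. Of the 6974 genes below it, 93 (1.33%) were called lower, with a median of 0.13. Across the 7993 genes tested in both comparisons Pearson's r was -0.592, and across the 9 enzymes it was -0.788, a description over genes that are not independent replicates.

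**Figure D4:**
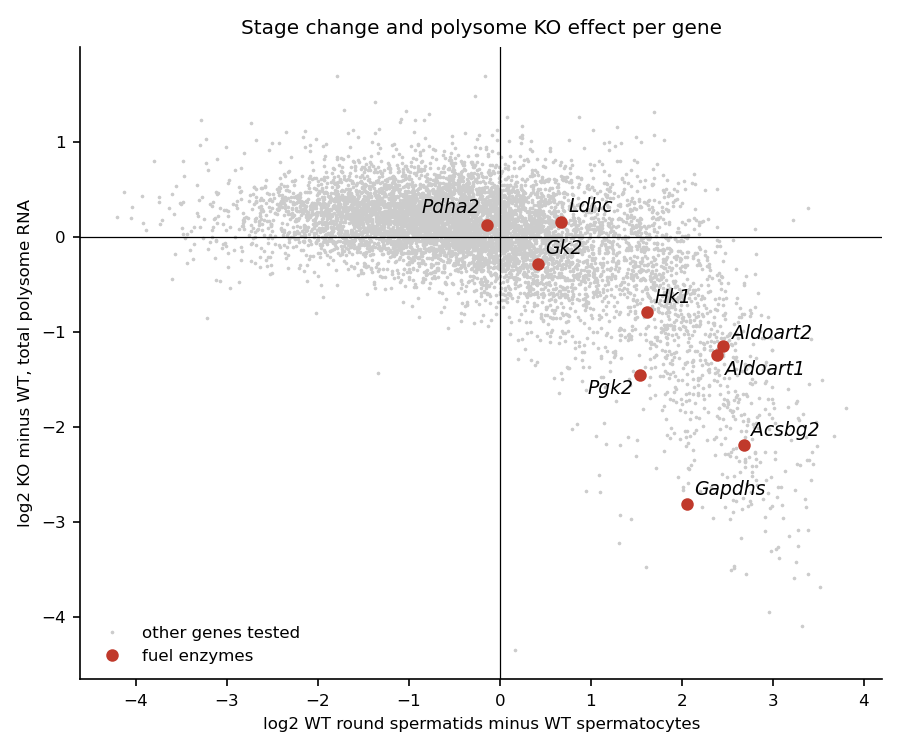
Log2 difference of WT round spermatids minus WT spermatocytes (x axis) and of KO minus WT polysome RNA (y axis) for the 9 enzymes (red) among the 7993 genes tested in both (grey). Enzymes with a strong stage rise lie low on the y axis, as do many other genes, and Ldhc, Gk2 and Pdha2 sit in the dense cloud near 0.

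Whether the KO effect differed between the germ cell stages was tested with an interaction term, the KO effect in round spermatids minus that in spermatocytes. It was called for 2 of the 9 genes, both lower, at a background of 13.7% lower, 32.3% higher and 46% in either direction. Aldoart1 had the larger KO difference in round spermatids (-0.81 ± 0.12) than in spermatocytes (-0.30 ± 0.05), with an interaction of -0.52 ± 0.13, adjusted p = 0.00484. Averaging near-identical arrays ended this call (adjusted p = 0.128). Hk1 had an interaction of -0.33 ± 0.11, adjusted p = 0.0284, but its second probe set read 0.11 ± 0.14, adjusted p = 0.562, and quantile normalization turned the sign (0.10, adjusted p = 0.115). The Hk1 call was also lost in 7 fits that left out 1 array (adjusted p from 0.0508 to 0.0795), namely without WT spermatocytes 4, KO spermatocytes 1 or 3, WT round spermatids 1 or 2, or KO round spermatids 2 or 3. In all it was called in 14 of 27 fits, and with near-identical arrays averaged 0 of the 9 genes were called (background 5.8% lower and 13.4% higher). With the replicate block 6 genes were called lower, at a background of 17.9% lower and 38.5% higher, with Ldhc (adjusted p = 0.00454), Pgk2 (adjusted p = 0.00971), Aldoart2 (adjusted p = 0.0424) and Acsbg2 (adjusted p = 0.00284) added. Other fits without the block also called Pgk2 (5 fits), Acsbg2 (4) and Aldoart2 (2) lower, among them, for Pgk2 and Aldoart2, the fit without WT round spermatids 3 (adjusted p = 0.00267 and 0.0216). Gapdhs did not pass (-0.07 ± 0.11, adjusted p = 0.654), and after quantile normalization it was called with the opposite sign (0.41, adjusted p = 8.23e-05). That normalization called 4 of the 9 genes higher (Gapdhs, Aldoart2, Pdha2 and Gk2) and 1 lower (Aldoart1), at a background of 27.1% higher and 18.5% lower.

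Whether the KO effect differed between polysome RNA and round spermatids was tested in the same way. None of the 9 genes was called by limma, where 2.25% of all genes were called lower, 0.539% higher and 2.79% in either direction, and 1704 genes had an unadjusted p under 0.05. Gapdhs had the lowest value, an interaction of -1.86 ± 0.50, adjusted p = 0.0653, and stood at rank 27 from the lowest of 9097 genes. Acsbg2 had -0.92 ± 0.28, adjusted p = 0.102, and Pgk2 had -0.78 ± 0.28, adjusted p = 0.15. With the replicate block these 3 were called lower (Gapdhs adjusted p = 0.00691, Acsbg2 adjusted p = 0.0384 and Pgk2 adjusted p = 0.0228), at a background of 11.4% lower and 4.03% higher. Fits that called each gene numbered 8 of 25 for Gapdhs, 6 of 25 for Acsbg2, 3 of 25 for Pgk2 and 1 of 25 for Aldoart1. They included those without WT polysome 2 (adjusted p = 0.0378) or WT polysome 3 (adjusted p = 0.0253) for Gapdhs and without KO polysome 1 (adjusted p = 0.00484) for Acsbg2. The 6 for Acsbg2 also held the fit without the polysome arrays of conflicting description, which left 1 WT polysome array. The interaction was called for 11 of 16 elongating spermatid markers, all lower, with a list median of -1.81, and its part in the enzymes' values was not tested.

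The IP arrays addressed which polysome transcripts GRTH antibody recovered beyond control IgG. Of the 9 genes 0 were called by limma, as were 0% of all genes, with 364 of 9097 genes at an unadjusted p under 0.05 and 65 called with the replicate block. For Gapdhs the signal was 16589 and 14729 in GRTH IP against 24141 and 27303 in IgG IP (-0.72 ± 0.58, adjusted p = 0.977). For Pgk2 it was 9886 and 8339.5 in GRTH IP against 12090.5 and 11182 in IgG IP (-0.36 ± 0.58, adjusted p = 0.977). Both arrays of the GRTH antibody lay below both IgG arrays for these 2 genes. Pdha2 likewise read 4992 and 3881 in GRTH IP against 7215 and 6652 in IgG IP, and Aldoart1 read 1066 and 1162 in GRTH IP against 1890.2 and 2309.8 in IgG IP. Aldoart2 read 1005 and 2688 in GRTH IP against 2754 and 3886 in IgG IP, and Acsbg2 read 1401 and 2059 in GRTH IP against 2078 and 2712 in IgG IP. These 4 also had no overlap between antibody and IgG. How many of all genes tested separated in this way was not counted. With 2 arrays on each side such separation is common without any difference, so it is not read as a result. Hk1 (2752 and 6708 in GRTH IP against 3024 and 7389 in IgG IP) and Gk2 (32546 and 26195 in GRTH IP against 32958 and 28518 in IgG IP) overlapped. Ldhc was the only 1 of the 9 with a positive log2 difference (0.22 ± 0.64), at 75166 and 122769 in GRTH IP against 57146 and 119850 in IgG IP, and its ranges overlapped widely. SEs were 0.58 to 0.70, so differences of the sizes seen here were not detectable with these arrays.

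Other genes of fuel metabolism were read from 5 lists. In polysome RNA 0 of 17 tested enzymes of the rest of glycolysis, 0 of 10 of the pyruvate dehydrogenase group and 0 of 13 of fatty acid activation and entry were called. Calls were limited to Gpd2, the mitochondrial glycerol phosphate dehydrogenase (-1.70 ± 0.21, adjusted p = 0.00138), Aqp7, a glycerol channel (-1.42 ± 0.27, adjusted p = 0.0125), and Slc16a7, a monocarboxylate transporter (-1.08 ± 0.21, adjusted p = 0.0158), all lower in KO. In spermatocytes 5 of 15 tested glycolysis enzymes were higher and 3 lower, and in round spermatids 4 of 16 were higher and 6 lower. Over all genes tested 19.6% were higher and 17.8% lower in KO spermatocytes, and 41% higher and 22.4% lower in KO round spermatids, and the counts of each list are to be read against those shares. Pkm, the pyruvate kinase of most tissues, was lower in KO at both stages (-0.69 ± 0.09, adjusted p = 0.000336, in spermatocytes and -1.10 ± 0.12, adjusted p = 0.000191, in round spermatids). Aldoa, the aldolase from which both retrogenes derive, was also lower (-0.27 ± 0.04, adjusted p = 0.00099, in spermatocytes and -0.59 ± 0.08, adjusted p = 0.000665, in round spermatids), and in WT it rose with stage (1.82 ± 0.06, adjusted p = 1.21e-08). How far the Aldoa probe set also reads the retrogene transcripts was not tested. Of the glycerol genes 3 of 5 were lower and 0 higher in KO spermatocytes, and 2 of 4 were lower and 0 higher in KO round spermatids, Gpd2 (-0.66 ± 0.13, adjusted p = 0.00304) and Aqp7 (-0.44 ± 0.07, adjusted p = 0.00111). Of the genes of fatty acid activation and entry 6 of 10 were higher and 1 lower in KO round spermatids. The higher ones included Acss2, an acetyl-CoA synthetase (0.92 ± 0.06, adjusted p = 2.5e-05), and Crat, carnitine acetyltransferase (0.50 ± 0.07, adjusted p = 0.000453), while Acsl5, a long-chain acyl-CoA synthetase, fell (-1.09 ± 0.08, adjusted p = 3.41e-05). Of the sugar and monocarboxylate transporters 4 of 7 were higher and 1 lower in KO round spermatids, among them Slc16a1 (0.44 ± 0.08, adjusted p = 0.00209), the lactate and pyruvate carrier of many cells. Of 8 genes of the pyruvate dehydrogenase group 4 were higher and 2 lower there, with Pdp1, a phosphatase that activates the complex, lower (-0.55 ± 0.09, adjusted p = 0.00125).

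In the Leydig cell fraction the germ cell enzymes and several somatic counterparts were called in opposite directions. Pgk1 read 1597 and 1540.2 in KO against 794 and 774 in WT (0.99 ± 0.03, adjusted p = 5e-05). Pdha1 read 504 and 495 in KO against 251 and 257 in WT (0.93 ± 0.02, adjusted p = 3.52e-05). Acsbg1 read 6883 and 6874 in KO against 2722 and 2696 in WT (1.34 ± 0.02, adjusted p = 2.38e-05). These 3 rose, as did Ldhb, the heart-type lactate dehydrogenase (0.80 ± 0.03, adjusted p = 0.000103), whereas Ldha fell (-0.16 ± 0.02, adjusted p = 0.00406) and Aldoa was not called (0.04 ± 0.02, adjusted p = 0.16). All 6 measured Leydig cell markers were higher in the KO fraction, with a median of 1.19 and a summed signal of 59019 to 59824 in KO against 32033 to 32086 in WT. Of 8 macrophage markers 7 were also called higher there and 1 lower, with a median of 1.15 and a summed signal of 13042 to 13104 in KO against 11407 to 11437 in WT. Of 9 round spermatid markers 7 were called lower and 0 higher, with a median of -0.32. Over all genes tested 38.6% were called higher in this fraction and 39.3% lower. The 16 elongating spermatid markers summed to 135535 to 137898 in the KO Leydig fraction against 217254 to 219709 in the WT Leydig fraction and 135573 to 164561 in WT spermatocytes. Germ cell transcripts were abundant in the fraction labelled Leydig cells, and the part of cell makeup in these differences was not tested. The 2 arrays of each genotype were close (SD of log2 differences 0.08 in KO and 0.09 in WT), and 77.9% of all genes were called there.

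**Figure D5:**
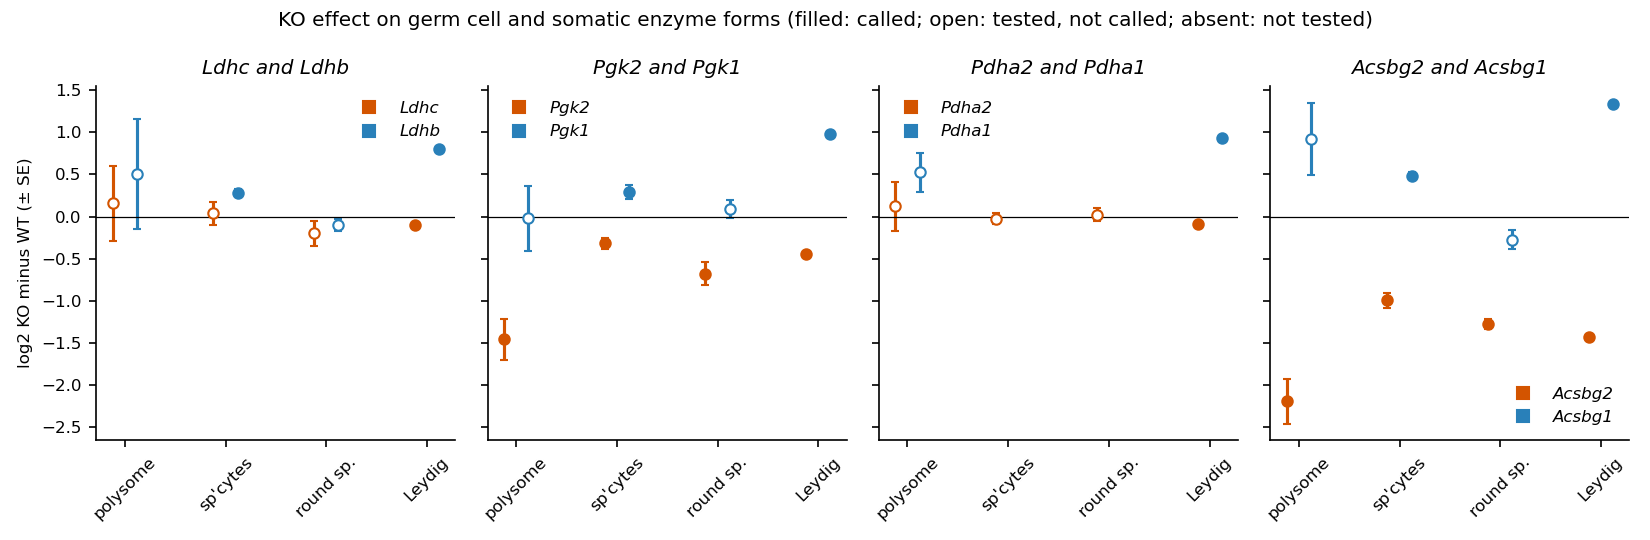
Log2 difference of KO minus WT with SE (y axis) in 4 RNA sources (x axis) for 4 germ cell enzymes (orange) and a somatic counterpart of each (blue), filled where called and open where not. Pgk1, Pdha1, Acsbg1 and Ldhb lie between 0.80 and 1.34 in the Leydig fraction, with Pgk2, Pdha2, Acsbg2 and Ldhc below 0. Ldha, which fell there, and Aldoa, which was not called, are not drawn. The calls of Pdha2 and Ldhc in that fraction depended on the processing.

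Elsewhere the calls of the somatic counterparts differed by RNA source, and Aldoa, given above, was called lower in both germ cell fractions. In polysome RNA Ldha (-0.34 ± 0.22, adjusted p = 0.428), Pgk1 (-0.02 ± 0.39, adjusted p = 0.983), Pdha1 (0.53 ± 0.23, adjusted p = 0.26) and Acsbg1 (0.92 ± 0.43, adjusted p = 0.278) did not pass. Pgk1 (0.29 ± 0.08, adjusted p = 0.0233), Ldhb (0.27 ± 0.05, adjusted p = 0.00167) and Acsbg1 (0.49 ± 0.05, adjusted p = 4.29e-05) were higher in KO spermatocytes, a fraction in which 5 of 6 Leydig cell markers were also called higher (summed signal 8748 to 9715 in KO against 6475 to 7067 in WT). Over all genes tested 19.6% were called higher in KO spermatocytes. The part of Leydig cells in those 3 differences was not tested. In round spermatids Pgk1, Ldha, Ldhb and Acsbg1 were not called, and Pdha1 and Hk2 were below the signal filter in both germ cell fractions.

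Across the 10 group means of log2 signal the enzymes did not follow 1 profile. Pearson's r was 0.951 between Aldoart1 and Aldoart2, 0.922 between Pgk2 and Aldoart1 and 0.889 between Gapdhs and Acsbg2, but -0.8 between Ldhc and Pdha2, where GRTH IP had the highest mean of Ldhc and the lowest of Pdha2. These values describe 10 points that share arrays and scaling. Both IP groups, labelled in 2 steps, are among them, and the part of that labelling in these values and the next was not tested. Among 9096 genes searched, the 2 whose group means followed each enzyme most closely were 4933411K16Rik (0.985) and 1700029H14Rik (0.982) for Gapdhs, Wbp2nl (0.989) and Mgat4e (0.986) for Acsbg2 and Pgap4 (0.979) and Tmem81 (0.967) for Hk1, with r in brackets. For Aldoart1 they were Ccdc93 (0.99) and Gm550 (0.99), for Aldoart2 Rffl (0.986) and 1700013G24Rik (0.985) and for Pgk2 Zbbx (0.983) and Ppp4r1l-ps (0.982). For Ldhc they were Pebp1 (0.991) and Prkdc (0.989), for Pdha2 Supt3 (0.991) and Lmf2 (0.99) and for Gk2 Znhit1 (0.971) and Psme4 (0.966).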

How the data were processed

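Per the submitters' processing notes the deposited values came from GCOS, Affymetrix's array software, with no version or settings recorded in those notes. They are linear signal intensities of 45101 probe sets on 28 arrays. Judged from the deposited values, the authors had scaled the intensities of 24 arrays to a mean of 500 after trimming (0.02 of the values at each end), and all arrays were brought to it here. Values became log2(signal + 16), so fold changes understate dim genes. Of the probe sets, 34945 had 1 gene symbol, 932 several and 9160 none, and 64 controls were left out. A gene was read from the probe set with the highest mean log2 value. A filter kept, per comparison, the 9097 genes whose mean signal reached the median over that comparison's arrays.

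Tests were limma 3.58.1 (lmFit, eBayes) in R 4.3.3 with jsonlite 2.0.0 and the data.table package (version 1.17.8), on the groups of a comparison alone, with Benjamini-Hochberg adjustment over all genes tested and a threshold of 0.05, after a run on simulated data. Python 3.11.15 with pandas 2.3.3, numpy 2.4.6, scipy 1.17.1 and matplotlib 3.10.9 did the rest. The number of arrays limits the precision.

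The 9 genes, the lists, the markers and the limit on the stage change were chosen with earlier results of these data known. The text names the 9 genes, up to 4 called genes with the smallest adjusted p of each other list, the somatic counterparts, the 2 genes of most similar pattern for each enzyme, and Ddx25. Some list symbols were not analysed here, Gpi1, Gapdh, Eno1, Mpc2, Gk, Acsl1, Acss3 and Cpt1b among them. Promoters are RefSeq's (GRCm38.p6).

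Same-numbered arrays deviated together from their group means: the deviations correlated across genes at 0.436, 0.668 and 0.665 in polysome RNA. The values were 0.322, 0.28, 0.26 and 0.386 in spermatocytes, then 0.247, 0.138 and 0.245 in round spermatids. Between the WT stages they were 0.261, 0.204 and 0.188, and there round spermatid array 3 correlated most with spermatocyte array 4. Nothing in the labels says what the numbers mark, so the pairing comes from the data, and blocked values appear only beside calls that they alter. The Leydig pairs correlated at 0.0277 and the IP pairs at 0.434. Alternatives covered scaling, offset, filter, probe sets, pooled fits, array weights and left-out arrays.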

Additional observations from a re-analysis of the deposited data

Results flagged for a closer look

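For 2 of the 9 enzymes, both called lower, the KO effect differed between round spermatids and spermatocytes by a test of the difference itself. That test called 13.7% of all genes lower, 32.3% higher and 46% in either direction. The count of 2 is to be read against those shares. After quantile normalization 4 of the 9 were called higher and 1 lower (background 27.1% higher and 18.5% lower). Aldoart1 had an interaction of -0.52 ± 0.13, adjusted p = 0.00484. Its KO mean was 56.4% of the WT mean in round spermatids and 81.2% in spermatocytes. Hk1 had an interaction of -0.33 ± 0.11, adjusted p = 0.0284, with a KO mean of 62.5% of the WT mean in round spermatids and 78.6% in spermatocytes. The Aldoart1 call ended when near-identical arrays were averaged (adjusted p = 0.128), and it stood in 26 of 27 fits. Hk1 was called in 14 of 27 fits, and its second probe set had the opposite sign (0.11 ± 0.14, adjusted p = 0.562). In spermatocytes, the groups of 4 arrays, 0 of 22 combinations of enzyme probe set and genotype held an array far from the others by Dixon's test.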

How the results depend on the processing

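Across 8 comparisons of 9 enzymes, 1236 alternative values kept their direction and side of the threshold, 52 became called and 47 lost the call. In 51 more the sign changed with no call in either fit (21 of Ldhc, 12 of Pdha2, 10 of Gk2, 5 of Hk1 and 1 each of Gapdhs, Pgk2 and Aldoart2). A further 7 turned with a call in at least 1 of the fits. All 7 came under quantile normalization: Gk2 (0.20) in round spermatids, Pdha2 (0.0394) in Leydig cells, Gk2 (-0.24) between the WT stages, and Gapdhs (0.41), Aldoart2 (0.18), Hk1 (0.10) and Gk2 (0.22) for the KO effect in round spermatids minus that in spermatocytes. The cause was not tested. A fit over 24 arrays ended the calls of Aldoart1 (adjusted p = 0.0706) and Pgk2 (adjusted p = 0.117) in spermatocytes and of Aldoart1 (adjusted p = 0.137) and Pgk2 (adjusted p = 0.0972) in Leydig cells, with limma, besides those of Ldhc, Pdha2 and Gk2 in Leydig cells and Hk1 for the KO effect in round spermatids minus that in spermatocytes (adjusted p = 0.169). Median centring moved the all-gene median to -0.04 in polysome RNA, against 0.13 as reported, to -0.19 against -0.01 in Leydig cells, to -0.41 against -0.02 in the IP, to -0.41 against -0.24 between the WT stages and to -0.31 against -0.14 for polysome RNA minus round spermatids, and quantile normalization moved the WT stage median to -0.12.

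Counts of genes called moved by over 1.5 times as follows, and the cause was not tested except where fewer arrays or genes entered. The polysome count of 577 was 0 on the deposited scale, where 4 arrays were unscaled and none of the 9 enzymes was called, 378 without the signal filter, 3206 in a fit over 24 arrays, 2248 with the replicate block (1173 higher and 1075 lower, against 52 higher and 525 lower), 1604 with array weights and 294 without arrays of conflicting description, which left 1 WT array, assumed to vary like the others. Without WT 1 it was 383 and without KO 3 it was 384. The spermatocyte count of 3404 was 2154 after median centring (731 higher and 1423 lower, against 1781 higher and 1623 lower), 1818 with the filter at percentile 75 of signal, 1277 over 24 arrays and 1230 with near-identical arrays averaged. The filter at percentile 75 gave 3112 in round spermatids against 5765, 3859 in Leydig cells against 7087 and 4030 between the WT stages against 7929. Over 24 arrays the Leydig count was 1834, and median centring split it into 2216 higher and 5353 lower, against 3510 higher and 3577 lower. The IP count of 0 was 65 with the block, 8 without the array of conflicting description, which is IgG 1, and 17 without IgG 2. For round spermatids minus spermatocytes, 4186 became 2516 with the filter at percentile 75, 1726 over 24 arrays and 1746 with near-identical arrays averaged, and quantile normalization gave 2464 higher and 1687 lower, against 2941 higher and 1245 lower. For polysome RNA minus round spermatids, 254 became 0 on the deposited scale, 505 after median centring (28 higher and 477 lower, against 49 higher and 205 lower), 435 after quantile normalization, 72 without the filter, 168 for the mean of probe sets, 1587 over 24 arrays, 1402 with the block, 1131 with weights and 1669 without arrays of conflicting description.

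Leaving out 1 array gave 383 to 718 calls in polysome RNA, 2923 to 3101 in spermatocytes, 4984 to 6098 in round spermatids, 6162 to 6670 in Leydig cells, 0 to 17 in the IP, 7688 to 7982 between the WT stages, 3730 to 4492 for round spermatids minus spermatocytes and 70 to 725 for polysome RNA minus round spermatids. That last count was 70 to 113 without 1 of the 6 round spermatid arrays and was 725 without WT polysome 2. Where the replicate block changed a call or moved the members' count it is given beside the result, and it changed no other call of the 9 enzymes. The 2 arrays a group in Leydig cells and the IP limit the precision most.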
